A study of Sus scrofa with 85 samples.

Results

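The comparison described here is that of the infarcted with the non-infarcted region of the left ventricle of swine 2 days after a myocardial infarction. Its members are 8 RNA-seq libraries of micro-endomyocardial biopsies (micro-EMB), 4 labelled apical and 4 labelled lateral, of the 85 libraries of the series. They are the libraries of these labels at Day 2 with a total count of at least 1000000 and with 7% to 60% of the counts in their 10 most counted genes. At Day 2, 9 apical and 6 lateral libraries were sequenced, and this rule left out 5 and 2 of them.

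A balloon closed the distal left anterior descending artery of 3 female farm pigs of mixed breed, and the artery was then reopened. The apical biopsies were aimed at the region supplied by that artery and are called infarcted, while the lateral biopsies were taken nearer the base and are called non-infarcted. Both groups thus come from the same 3 infarcted hearts at the same day, with no genetic change and no drug as a variable, and the control is remote myocardium and not that of a healthy animal. Each group holds 2 libraries of swine 1640, 1 of swine 1644 and 1 of swine 5385, so the libraries are separate biopsies but not separate animals, and a p-value over libraries measures the spread between biopsies. Whether a single apical biopsy hit dead, border or spared muscle is not given by the labels.

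In an infarct, dying cardiomyocytes release their contents and blood-borne neutrophils and monocytes enter to clear them. Resident fibroblasts, which carry the receptor PDGFRA, then divide, become contractile and lay down a provisional matrix of fibronectin and tenascin that collagen fibres replace as the scar forms. Endothelial cells and macrophages also divide in this phase, whereas adult cardiomyocytes largely do not.

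The 4 infarcted-region libraries held 3832952 to 10307217 counts and the 4 of the non-infarcted region 7160165 to 10267684. The 10 most counted genes held 18.0% to 46.7% of the counts in the infarcted region and 22.4% to 32.5% in the other. Genes of the mitochondrial genome held 2.65% to 4.44% and 3.13% to 5.26%. In the 7 libraries left out at Day 2, the 10 most counted genes held 1.79% to 5.83% of the counts.

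The infarcted-region library of swine 5385 stood apart from the other 7. It had the lowest total, and ENSSSCG00000044834, a gene without a symbol here, alone held 23.3% of its counts, against 2.75% to 11.5% in the other libraries. The summed level of 16 sarcomere genes was 676 CPM, the counts of a gene scaled to a common library size, in it and 34000 to 93600 CPM in the others, so markers of cardiomyocytes were nearly absent from this biopsy. HBB, the beta chain of haemoglobin, was at 4917 CPM in this library and at 2993 CPM in the non-infarcted library of the same swine, against 12.1 to 33.0 CPM in the other 6. The counts of list members at an unadjusted p under 0.05 were therefore repeated without this library, and the numbers stayed the same for the matrix crosslinking, TGF-beta, contractile, cytokine, macrophage and interferon lists described here.

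No gene passed the test. Of 16901 genes tested by the quasi-likelihood method of edgeR, 0.00% were higher and 0.00% lower in the infarcted region at a Benjamini-Hochberg adjusted p of 0.05 or less. The lowest such value was 0.0501. The mean was higher in the infarcted region in 8871 genes (52.5%). Before adjustment, 997 higher genes (5.90%) and 524 lower genes (3.10%) had a p under 0.05, 1521 in all (9.00%), where chance gives 845. In 599 genes (3.54%) all 4 infarcted-region libraries lay above all 4 of the other region, and in 601 (3.56%) all lay below. DESeq2 called 194 genes higher (1.46% of 13250 with an adjusted p) and 51 lower (0.385%), and limma-voom called 1. On data simulated at this size a larger share of the calls of DESeq2 was false than of those of edgeR or limma-voom, and its calls are given only as counts.

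Without the infarcted library of swine 5385, edgeR called 5 genes higher (0.0303% of 16477) and none lower, with 722 higher (4.38%) and 621 lower (3.77%) at an unadjusted p under 0.05. The 5 genes were PDGFRA, CYP1B1, SERPINE2, CILP and CCDC80, 2 of which overlapped between the regions when all 8 libraries were used. With the swine as a block, and with the counts summed per swine, no gene was called, and the smallest adjusted p was 0.174 and 0.66 (edgeR).

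PDGFRA (ENSSSCG00000008841, on chromosome 8 of Sscrofa11.1 from 40966568 to 41021440), the receptor that marks cardiac fibroblasts, had the smallest p of all genes. Its level in the infarcted region was 149.5 and 107.97 CPM in the libraries of swine 1640, 136.05 CPM in swine 1644 and 130.98 CPM in swine 5385. In the non-infarcted region it was 49.4, 39.1, 42.5 and 44.7 CPM in the same order. The lowest infarcted biopsy lay well above the highest of the other region, and the library that lacked cardiomyocyte markers lay within the range of the rest. The log2 fold change was 1.58 ± 0.18 (SE), a 2.98-fold difference, with an adjusted p of 0.0501 (edgeR). In a whole biopsy, more cells of a type and more RNA per cell cannot be told apart.

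CYP1B1, a cytochrome P450 that oxidises steroids and fatty acids, was at 28.7, 19.1, 27.5 and 17.2 CPM in the infarcted region and at 5.38, 5.43, 4.34 and 5.21 CPM in the other, with the libraries in the same order. Its log2 fold change was 2.18 ± 0.25 (SE), again with an adjusted p of 0.0501 (edgeR), and the regions were far from overlapping. The rest of the 10 leading genes had adjusted p-values of 0.209 and 0.223 and did not pass. They were largely genes of the extracellular matrix: MFAP2 and ADAMTSL2 of the fibrillin microfibrils, the collagens COL6A3 and COL8A1, and the gelatinase MMP2. SFRP1, a secreted binder of Wnt ligands, GPX7, a peroxidase of the endoplasmic reticulum, and CERCAM completed them.

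MMP2 was at 240, 181.8, 353 and 228 CPM in the infarcted region against 111.9, 78.7, 75.6 and 96.1 CPM, and its log2 fold change was 1.47 ± 0.25 (SE). SFRP1 was at 57.1, 62.9, 63.5 and 89.6 CPM against 21.8, 26.9, 18.2 and 8.65 CPM, with a log2 fold change of 1.85 ± 0.32 (SE). Like all 10 leading genes, both were picked for having no overlap between the regions. The same direction in all 3 swine follows from that choice. The log2 fold changes of the 10 genes ran from 1.47 to 2.18. They kept their sign under every alternative tried, which the same choice largely fixed in advance.

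**Figure D1:**
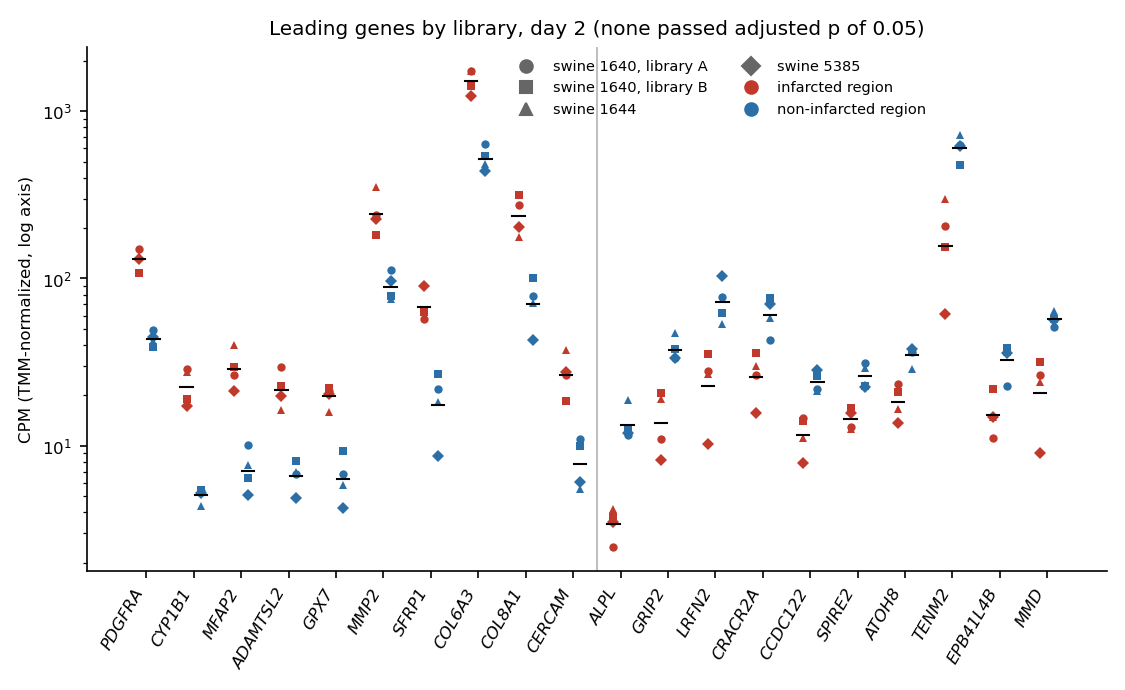
Level of the 10 leading genes in each direction in the 8 libraries, in TMM-normalized CPM on a log axis, with a bar at each group's geometric mean. Marker shapes give the swine and colours the region. The genes were picked so that the 4 libraries of one region lie apart from the 4 of the other. No gene passed an adjusted p of 0.05.

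Collagen genes were higher in the infarcted region as a group. Of 18 tested, 18 had a higher mean, 16 had an unadjusted p under 0.05 (15 without the infarcted library of swine 5385) and 12 did not overlap between the regions, where 5.90% and 3.54% of all genes did so. The median log2 fold change was 1.46, and 1.41 without that library, while the median over all genes was 0.0302. In 16 of the 18 the difference was positive in all 3 swine, as it was in 21.0% of all genes. The study left out a group of outlying biopsies with raised collagen genes, which it took to come from fibrous parts of the heart. It also left out biopsies that failed quality control or were contaminated with blood. The study kept fewer apical biopsies of Day 2 than the rule used here, so not all infarcted libraries used here were in its analysis. Which library it left out, and whether for collagen, blood or quality, is not given by the labels and was not tested.

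COL1A1 and COL3A1 encode chains of the fibrillar collagens I and III, the bulk of scar tissue. COL1A1 was at 7851, 5220, 10375 and 9312 CPM in the infarcted region and at 3639, 2499, 1373 and 1236 CPM in the other, and COL3A1 at 7040, 5684, 11376 and 3957 CPM against 2479, 1759, 1719 and 1932 CPM. Neither overlapped between the regions, the log2 fold changes were 1.91 ± 0.469 (SE) and 1.83 ± 0.415 (SE), and neither gene passed the test (adjusted p = 0.314 and 0.295, edgeR). COL4A1 and COL4A2, the collagens of basement membranes, were higher by less, with 1.01 and 0.71 on the log2 scale. COL18A1 and COL11A1 were the members with an unadjusted p above 0.05.

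Genes of the provisional and matricellular matrix were also higher. Of 16 tested, 13 were higher at an unadjusted p under 0.05 and none lower, where 5.90% of all genes were higher. Without the infarcted library of swine 5385 it was 10, against 4.38%. The median log2 fold change was 1.47 (1.26 without that library). FN1, fibronectin, was at 870, 1261, 1052 and 764 CPM in the infarcted region and at 214, 483, 173.5 and 139.4 CPM in the other, a 3.91-fold difference (log2 1.97 ± 0.415, SE, adjusted p = 0.254, edgeR). TNC, tenascin C, was at 144.9, 389, 151.6 and 531 CPM against 50.5, 107.7, 10.1 and 15.6 CPM, with a log2 fold change of 2.73 ± 0.76 (SE). Tenascin C is made where tissue is being rebuilt, and both genes were higher in every infarcted biopsy than in every other one. Within swine 1640 the second non-infarcted library held more FN1 and TNC than the first.

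CILP, cartilage intermediate layer protein, which binds TGF-beta, had the largest difference of this list and the least even one. It was at 105, 402 and 171.8 CPM in the infarcted biopsies of swine 1640 and 1644 but at 6.13 CPM in that of swine 5385, below all 4 non-infarcted libraries (21.9, 19.01, 15.1 and 13.5 CPM). Its log2 fold change was 3.30 ± 0.87 (SE, adjusted p = 0.336, edgeR), and 3.67 with an adjusted p of 0.0394 when that library was left out. In swine 5385 CILP thus lay in the opposite direction. SPP1, osteopontin, had a fitted log2 fold change of -0.73, but its mean of log2 CPM was the higher in the infarcted region, at 3.12 ± 1.45 (SD, n = 4) against 2.86 ± 2.52 (SD, n = 4). The highest of the 8 values, 70.1 CPM, was in 1 non-infarcted library of swine 1640, and no direction is given for this gene.

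Enzymes that process and crosslink matrix were higher in 11 of 15 tested genes at an unadjusted p under 0.05, against 5.90% of all genes. Their median log2 fold change was 1.01. LOXL2, a lysyl oxidase that crosslinks collagen, was at 100.5, 107, 105 and 119.3 CPM against 57.3, 54.3, 42.3 and 28.9 CPM, and SERPINH1, the collagen chaperone, at 306, 330, 396 and 740 CPM against 170.8, 210, 207.4 and 100.1 CPM. Neither overlapped between regions. Of 13 proteoglycans and elastic fibre genes 7 were higher at that p (10 without the infarcted library of swine 5385), with FBN1, fibrillin, at 895, 683, 1081 and 371 CPM against 339, 361, 345 and 309 CPM. In swine 5385 the FBN1 difference was small.

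Fibroblast markers other than the matrix genes were also higher, but not evenly in swine 5385. Of 10 tested, 6 had a higher level at an unadjusted p under 0.05, against 5.90% of all genes. Without the infarcted library of swine 5385 it was 8, against 4.38%, and the median log2 fold change went from 1.41 to 1.58. That library was the lowest of all 8 in 3 of the 10. Its summed level of these markers was 805 CPM, against 1180 to 3820 CPM in the other infarcted and 721 to 1450 CPM in the non-infarcted libraries. DPT was at 6.79 log2 CPM on average in both regions. TCF21, a transcription factor of cardiac fibroblasts, was at 13.7, 11.2, 19.7 and 11.7 CPM against 5.23, 5.57, 4.97 and 3.44 CPM. PDGFRB, which pericytes carry as well, was at 157.4 to 329 CPM and 182.2 to 253 CPM, with a log2 fold change of 0.02 ± 0.26 (SE). Of 10 genes of the contractile, activated state, 4 were higher at that p, among them VIM, vimentin, at 557, 444, 1090 and 1384 CPM against 283, 337, 171.1 and 147.7 CPM. ACTA2, smooth muscle actin, was at 42.6, 84.3, 41.9 and 105.6 CPM against 38.5, 39.8, 29.4 and 34.6 CPM, so its ranges nearly met.

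Among 17 genes of TGF-beta signalling, which drives fibroblasts to make matrix, 6 were higher at an unadjusted p under 0.05 and none lower. Over all genes 5.90% were higher at that p. The median log2 fold change of the 17 was 0.72. TGFB3 was at 23.3 to 42.0 CPM and 5.57 to 21.0 CPM, and TGFBI, a secreted target of the pathway, at 147.6 to 171.6 CPM and 56.9 to 102.8 CPM. The ligands did not move alike, since TGFB2 had a log2 difference of -0.46 and TGFB1 one of 0.67, both with an unadjusted p above 0.05.

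**Figure D2:**
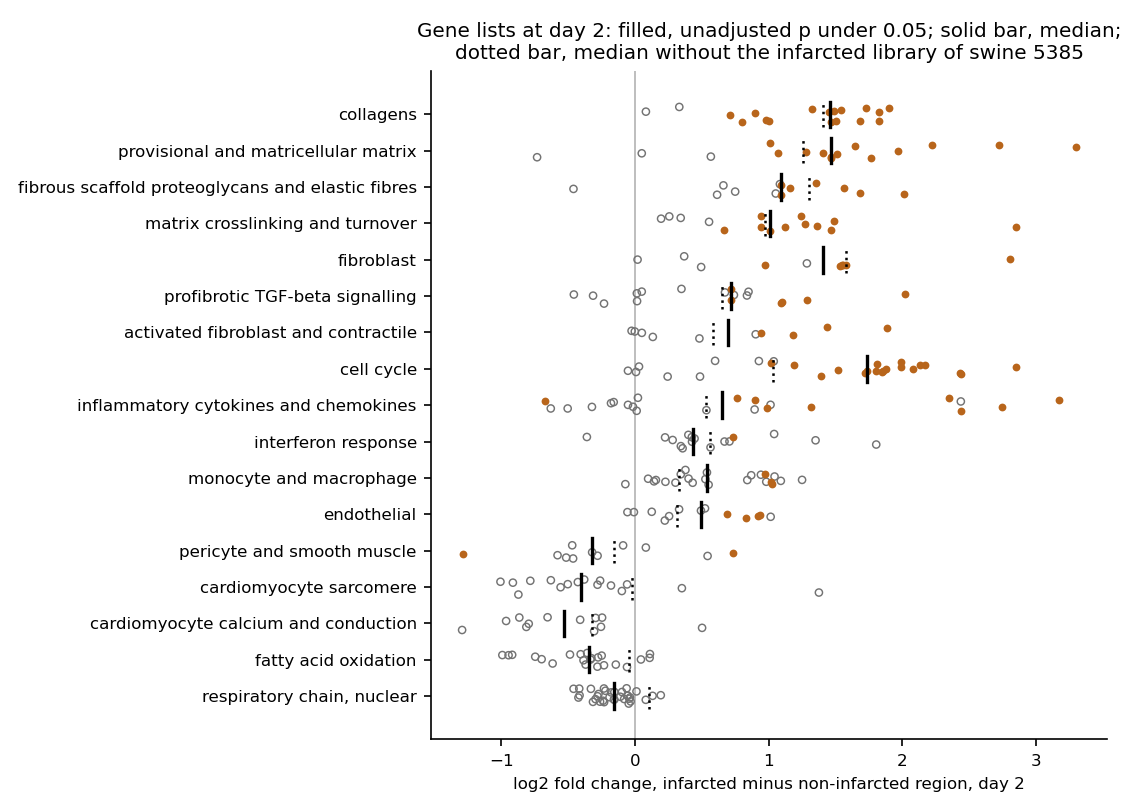
Log2 fold change (infarcted minus non-infarcted region) of each tested member of 17 gene lists. Filled points have an unadjusted p under 0.05, the solid bar is the median of a list and the dotted bar the median without the infarcted library of swine 5385, and matrix, fibroblast and cell cycle genes lie to the right of 0 while cardiomyocyte genes lie near or below it.

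Cell cycle genes were higher in the infarcted region, most of all in the library of swine 5385. These genes are read in cells that copy their DNA and divide and are commonly driven by E2F factors and by NF-Y, which binds CCAAT boxes. Of 27 tested, 26 had a higher mean, 19 had an unadjusted p under 0.05 and 11 did not overlap, where 5.90% and 3.54% of all genes did so. The median log2 fold change was 1.73. Without that library 13 of 27 had such a p, against 4.38% of all genes, and the median was 1.03. In 25 of the 27 this library was the highest of all 8, as it was in 23.3% of all genes, and in 22 the difference was positive in all 3 swine, against 21.0% of all genes.

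The promoters of 26 of these genes were read from the RefSeq genome Sscrofa11.1 as the 250 bases before the gene start, since the genes were higher together. Motifs were searched on both strands: E2F as TTTCCCGC, TTTGGCGC, TTTCGCGC or TTTGCCGC, the CCAAT box as CCAAT, and the cell cycle homology region (CHR) as TTTGAA or TTCGAA. The CCAAT box was found in 16 of the 26 (61.5%) and in 31.9% of 11568 promoters of tested genes. For E2F the values were 4 of 26 (15.4%) and 3.39%, and for CHR 8 of 26 (30.8%) and 11.9%. A match describes the letters only and is not evidence that a factor was bound. The 2 promoters printed here hold the most E2F matches of the list (MCM6) or several CCAAT boxes (TOP2A), with the matches in capitals, and a CCAAT box on the other strand reads ATTGG. They are MCM6 at chr15:15923388-15923637 (plus strand) and TOP2A at chr12:22001050-22001299 (plus strand), each written 5′ to 3′ toward the gene.
MCM6: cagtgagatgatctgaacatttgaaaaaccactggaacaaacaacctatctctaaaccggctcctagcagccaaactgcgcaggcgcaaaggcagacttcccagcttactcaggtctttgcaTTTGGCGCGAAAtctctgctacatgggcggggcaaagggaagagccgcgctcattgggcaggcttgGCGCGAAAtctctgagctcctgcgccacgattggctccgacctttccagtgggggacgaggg
TOP2A: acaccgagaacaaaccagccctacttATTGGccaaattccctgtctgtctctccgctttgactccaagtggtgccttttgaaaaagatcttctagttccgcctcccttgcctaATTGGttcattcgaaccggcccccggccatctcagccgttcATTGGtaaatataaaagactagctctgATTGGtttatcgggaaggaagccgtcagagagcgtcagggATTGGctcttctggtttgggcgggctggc
In MCM6, 2 of the 3 E2F matches overlap. TOP2A holds 5 CCAAT matches.

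TOP2A, the topoisomerase that untangles DNA in mitosis, was at 40.4, 29.4, 27.2 and 104.4 CPM in the infarcted region and at 4.95, 19.1, 7.09 and 5.69 CPM in the other, a log2 fold change of 2.44 ± 0.565 (SE, adjusted p = 0.299, edgeR). MCM2, a subunit of the helicase that opens DNA for replication, was at 9.87, 13.4, 12.4 and 67.1 CPM against 4.67, 3.53, 4.02 and 1.78 CPM. Neither overlapped between the regions, and for MCM2 the log2 fold change went from 2.85 to 1.74 when the infarcted library of swine 5385 was left out. CENPF, a kinetochore protein, was at 53.4, 44.2, 55.0 and 152.3 CPM against 15.1, 29.2, 10.4 and 12.8 CPM. PLK1, a mitotic kinase, was at 9.87, 7.33, 9.47 and 23.0 CPM against 3.40, 3.80, 3.28 and 2.84 CPM, so the other 3 infarcted biopsies also exceeded the remote ones. MCM6 (22.2, 21.0, 22.4 and 73.2 CPM against 11.6, 24.6, 13.97 and 10.1 CPM) and CCNB2, a mitotic cyclin (7.75, 5.66, 3.57 and 15.8 CPM against 2.12, 2.58, 2.12 and 2.84 CPM), were also highest in the infarcted library of swine 5385, although MCM6 overlapped between the regions. CCND1 and NUSAP1 had log2 differences of 0.03 and 0.01.

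The library of swine 5385 that was highest in these genes was also the one with the fewest cardiomyocyte transcripts and the most HBB, and the part of either in the result was not tested. Cell cycle genes are read in blood too: MCM2 was at 3.64 ± 0.48 log2 CPM (SD, n = 4) in blood at Day 2, against 4.37 ± 1.28 (SD, n = 4) in the infarcted and 1.95 ± 0.58 (SD, n = 4) in the non-infarcted region. TOP2A was also lower in blood than in the infarcted region, at 4.69 ± 0.65 against 5.59 ± 0.92 (SD, n = 4 each). Other members were higher in blood, as BUB1B at 5.01 ± 0.54 against 4.16 ± 0.93 and CDK1 at 4.38 ± 0.88 against 4.04 ± 0.52 (SD, n = 4 each). The non-infarcted library of swine 5385, with HBB at 2993 CPM, did not lie on 1 side in these genes. It was the lowest of all 8 in MCM2 but the highest of the non-infarcted libraries in CCNB2.

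Inflammatory genes were mixed. Of 22 cytokine, chemokine and adhesion genes tested, 8 were higher and 1 was lower at an unadjusted p under 0.05, where 5.90% and 3.10% of all genes were. Their median log2 fold change was 0.65 (0.301 without library A of the infarcted region of swine 1640). CCL21, a chemokine of lymphatic vessels that draws lymphocytes and dendritic cells, was at 125, 50.2, 169 and 14.9 CPM in the infarcted region and at 14.9, 28.9, 15.3 and 7.23 CPM in the other, a log2 fold change of 2.44 ± 0.67 (SE, adjusted p = 0.363, edgeR). The regions overlapped through the infarcted library of swine 5385, which was still the higher of the 2 libraries of that animal. The adhesion molecules VCAM1, ICAM1 and SELP, which let leukocytes leave the blood, had log2 differences of 1.32, 0.99 and 2.35, and of the 3 only ICAM1 did not overlap (19.6 to 27.4 CPM against 7.30 to 15.9 CPM). CXCL2, which attracts neutrophils, was the gene on the other side, at 13.4 to 25.8 CPM against 25.6 to 41.1 CPM. IL6, CXCL8, CXCL10 and IL10 were below the filter on low counts.

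Markers of leukocytes with an unadjusted p under 0.05 were few in number, on short lists. Over all genes 5.90% were higher at that p, and 4.38% without the infarcted library of swine 5385. Of 23 monocyte and macrophage genes 22 had a higher mean in the infarcted region, but 3 had such a p, and the median log2 fold change was 0.54 (0.33 without the infarcted library of swine 5385). The complement genes C1QA, C1QB and C1QC, made by resident macrophages, were highest in the infarcted biopsy of swine 1644 (65.1, 86.7 and 79.4 CPM) and lowest of the infarcted biopsies in swine 5385 (11.7, 17.2 and 9.04 CPM). Of 6 neutrophil genes tested 1 had such a p, and none without the infarcted library of swine 5385, and of 10 T and B lymphocyte genes none, with medians of 0.22 and -0.07. The summed level of the neutrophil genes was 30.5 to 81.4 CPM in the infarcted and 25.4 to 56.2 CPM in the non-infarcted region, and that of the lymphocyte genes 17.0 to 31.2 CPM and 21.0 to 30.6 CPM, with S100A8, S100A12, MPO and ELANE below the filter. Of 16 interferon response genes 15 had a higher mean and 1 had an unadjusted p under 0.05.

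Endothelial markers had a median log2 fold change of 0.49, with 4 of 13 higher at an unadjusted p under 0.05, against 5.90% of all genes. None had such a p without the infarcted library of swine 5385, which was the highest of the 8 in 10 of the 13. PECAM1 was at 561, 295, 403 and 826 CPM against 242, 332, 299 and 298 CPM. Its regions overlapped because of the second biopsy of swine 1640.

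Cardiomyocyte genes were not called in either direction. Of 16 sarcomere genes 14 had a lower mean in the infarcted region and none had an unadjusted p under 0.05. The median log2 fold change was -0.40 with all libraries and -0.02 without the infarcted library of swine 5385, which was the lowest of the 8 in all 16. TNNT2, cardiac troponin T, was at 2994, 4378, 6018 and 32.1 CPM in the infarcted region and at 3479, 3837, 8174 and 4246 CPM in the other. Apart from swine 5385, the regions overlapped.

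Genes of calcium handling and conduction mostly had a lower mean. Of 12 tested, 11 had a lower mean and 2, RYR2 and SLC8A1, did not overlap, where 3.56% of all genes lay below in this way. Without the infarcted library of swine 5385 the median was -0.32 and these 2 had an unadjusted p under 0.05. In this direction 3.77% of all genes had such a p. RYR2, the channel that releases calcium from the sarcoplasmic reticulum, was at 3182, 4834, 5727 and 51.9 CPM against 6622, 8948, 9760 and 8465 CPM, with a log2 fold change of -0.91 (unadjusted p = 0.00882, edgeR) in the 7 libraries. SLC8A1, the sodium-calcium exchanger, was at 1239, 1513, 1734 and 258 CPM against 2162, 1951, 1966 and 2151 CPM. Both were lower in every infarcted biopsy than in any of the other region.

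Genes of energy metabolism did not separate the regions. Of 22 genes of fatty acid oxidation, the main fuel pathway of the heart, 19 had a lower mean and none had an unadjusted p under 0.05, with a median log2 fold change of -0.345 (-0.05 without the infarcted library of swine 5385). For 33 nuclear genes of the respiratory chain the median was -0.16 and turned to 0.10 without that library, which was the lowest of the 8 in all 33. The 13 protein-coding genes of mitochondrial DNA had a median of -0.23, and this library was the lowest in 1 of them. VEGFA, the growth factor of vessels, was lower in every infarcted biopsy, at 126.8, 160.3, 148.5 and 34.7 CPM against 189, 225, 249.9 and 228 CPM (adjusted p = 0.539, edgeR).

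**Figure D3:**
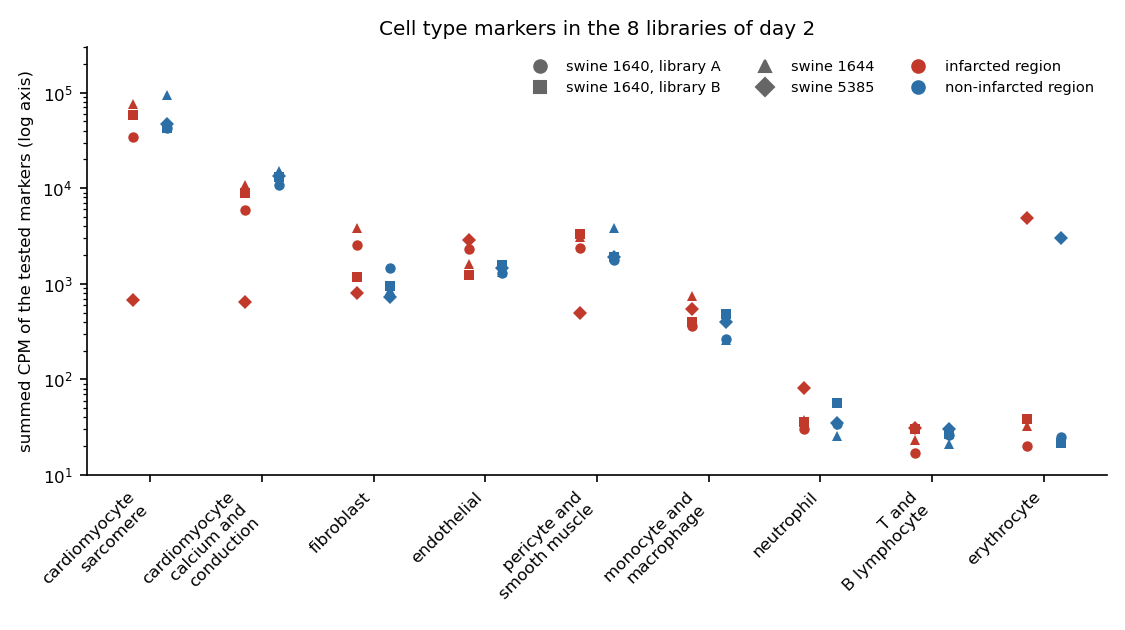
Summed TMM-normalized CPM of the tested markers of 9 cell types in each of the 8 libraries, on a log axis, with colours for the region and shapes for the swine. The infarcted library of swine 5385 lies far below the others in cardiomyocyte markers (676 CPM in sarcomere genes), and both libraries of swine 5385 lie above the others in erythrocyte markers.

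The leading genes in the lower direction had adjusted p-values from 0.223 to 0.304 (edgeR) and none passed the test. ALPL, the tissue-nonspecific alkaline phosphatase, led them with 2.47, 3.75, 4.19 and 3.50 CPM in the infarcted region and 11.6, 12.5, 18.7 and 11.8 CPM in the other, a 3.93-fold lower level (log2 -1.97 ± 0.30, SE). The infarcted library of swine 5385 lay in the middle of its group. ALPL was at 2.75 ± 1.05 log2 CPM (SD, n = 4) in biopsies at baseline, at 2.02 ± 0.30 (SD, n = 4) in the infarcted and at 3.90 ± 0.32 (SD, n = 4) in the non-infarcted region at Day 2, so that baseline lay between them. At Day 14 it was at 2.39 ± 0.94 (SD, n = 7) and 4.22 ± 0.61 (SD, n = 6).

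TENM2, a teneurin that links neighbouring cells, was at 206.2, 154.3, 300 and 61.6 CPM against 629, 478, 719 and 622 CPM (log2 -1.76 ± 0.42, SE). GRIP2, LRFN2, CRACR2A, CCDC122, SPIRE2, ATOH8, EPB41L4B and MMD completed the list, with log2 fold changes from -1.55 to -0.86. In 7 of these 10 genes the infarcted library of swine 5385 was the lowest of the 8. Without it the log2 fold changes of the 10 ran from -2.01 to -0.80. Their sign was fixed in advance, since only genes with no overlap between the regions were picked.

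Of 6 genes the study names for this day, which were chosen on samples of this series and so give no independent evidence, FN1, TNC and CILP are given above. FAM111A, a protease that acts at stalled replication forks, was at 75.4, 50.4, 47.2 and 23.0 CPM against 24.5, 22.7, 13.4 and 14.6 CPM (log2 1.39 ± 0.35, SE). SMC4, a subunit of condensin, was at 43.2, 40.2, 44.7 and 102 CPM against 22.2, 33.3, 25.7 and 26.5 CPM, and ENSSSCG00000014997 at 25.4, 30.6, 20.03 and 17.5 CPM against 15.3, 16.6, 12.8 and 13.3 CPM. SMC4 and ENSSSCG00000014997 did not overlap between regions, while FAM111A did through the infarcted library of swine 5385.

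The region difference at Day 2 was set against that at Day 14, where 7 infarcted and 6 non-infarcted libraries were kept. In a fit of all 45 kept biopsies no gene had a difference between the 2 days at an adjusted p of 0.05 or less (edgeR, 0.00% of 18097, smallest adjusted p = 0.876), and 337 genes (1.86%) had a more positive difference at Day 2 at an unadjusted p under 0.05. For the collagens no difference between the days was seen, but the precision was low. Day 14 alone gave an unadjusted p under 0.05 to 2.93% of all genes in the higher direction. The median log2 fold change of the collagens was 1.37 at that day, and none of 18 had an unadjusted p under 0.05 for the difference of the days. COL3A1 had a difference of 0.30 ± 1.11 (SE), too wide an error to show that the days were alike. In the infarcted region COL1A1 spread more at Day 14 (SD 1.91 log2 CPM, n = 7) than at Day 2 (SD 0.44, n = 4).

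The region difference of the cell cycle genes was larger at Day 2 in value. At Day 14 their median log2 fold change was -0.16, and 16 of 27 had a more positive difference at Day 2 at an unadjusted p under 0.05, against the 1.86% of all genes, with a median difference of 1.82. When the infarcted library of swine 5385 was left out, the count was 6 of 27, against 0.805% of all genes, and the median 1.34. MCM2 had a difference between the days of 2.85 ± 0.845 (SE) and PLK1 one of 2.40 ± 0.69 (SE), both with an adjusted p of 0.876 (edgeR).

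CCL21 and SELP had the opposite sign at the 2 days, with log2 fold changes between regions of -0.75 and -1.04 at Day 14, and a difference of 3.16 ± 0.82 (SE) and 3.35 ± 1.18 (SE). Neither passed after adjustment. The libraries of Day 14 come from the same 3 swine, so the 2 days are not independent animals.

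**Figure D4:**
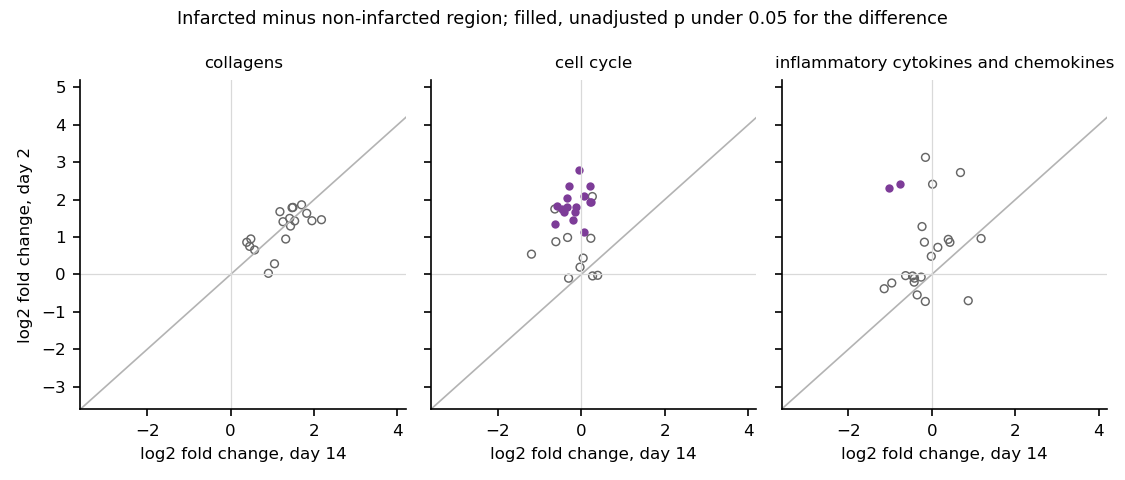
Log2 fold change between regions at Day 2 (vertical axis) against Day 14 (horizontal axis) for each tested collagen, cell cycle and inflammatory gene, from the fit of 45 biopsies. Points on the diagonal differ equally at both days, as collagens nearly do, while cell cycle genes lie above it near 0 on the horizontal axis, and filled points have an unadjusted p under 0.05 for the difference.

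The levels of PDGFRA, FN1, COL3A1 and MMP2 were also read in other groups. The baseline biopsies, here and for ALPL above, are labelled apical, but the study states that they were aimed at no particular region. They were uneven, with TNNT2 at 9.79 ± 5.65 log2 CPM (SD, n = 4). PDGFRA was at 7.19 ± 0.21 log2 CPM (SD, n = 4) in the infarcted and 5.59 ± 0.14 (SD, n = 4) in the non-infarcted region at Day 2, and at 5.98 ± 0.80 (SD, n = 4) at baseline. At Day 14 it was at 6.26 ± 0.94 (SD, n = 7) and 5.51 ± 0.45 (SD, n = 6). In blood at Day 2 it was at 2.36 ± 0.77 (SD, n = 4), well under any myocardial group. FN1 was at 10.08 ± 0.29 (SD, n = 4) in the infarcted and 7.94 ± 0.78 (SD, n = 4) in the non-infarcted region, with baseline at 7.92 ± 1.78 (SD, n = 4), a level like that of the remote region but with a much wider spread. For COL3A1 baseline lay between the regions of Day 2, at 11.74 ± 1.36 against 12.83 ± 0.61 (infarcted) and 11.07 ± 0.24 (non-infarcted, SD, n = 4 each). MMP2 at baseline was nearer the infarcted region, at 7.63 ± 0.79 against 8.09 ± 0.39 and 6.62 ± 0.26 (SD, n = 4 each).

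**Figure D5:**
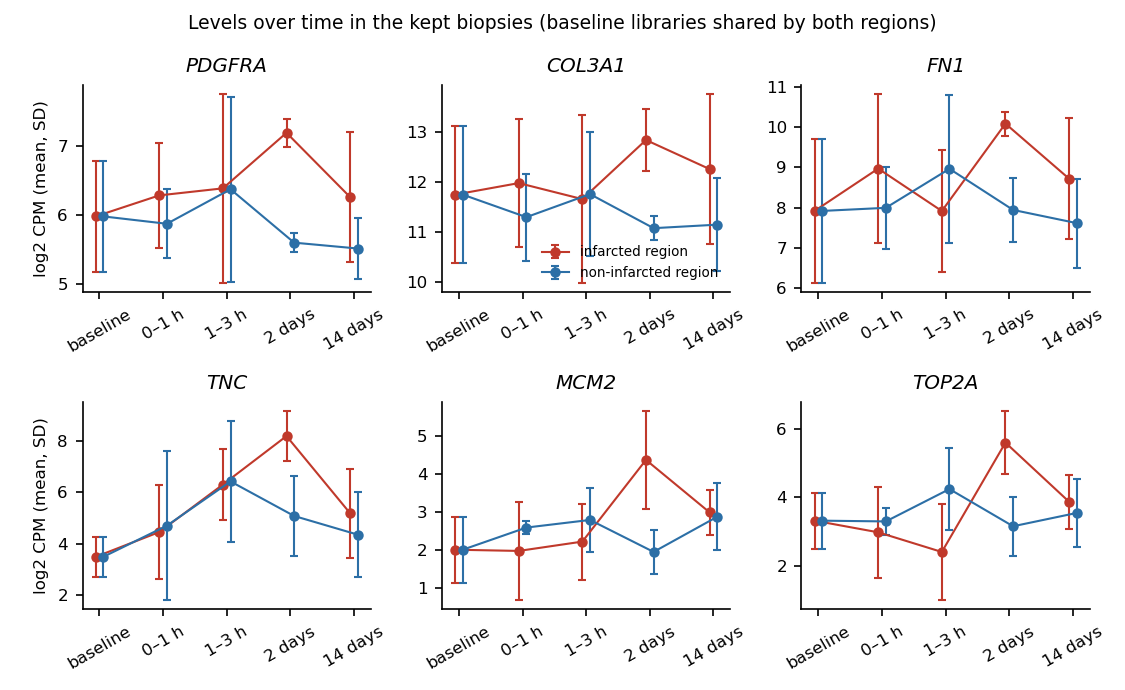
Mean log2 CPM with SD of 6 genes in the kept biopsies of the infarcted and the non-infarcted region at baseline, at both early times (the first of them during the occlusion) and at Day 2 and Day 14 (3 to 9 libraries per point, and the 4 baseline libraries are drawn in both lines). The SD bars of the regions do not overlap at Day 2 in any of the 6 genes and overlap at the other times. All 6 are genes whose libraries do not overlap between the regions at Day 2, so the separation at that day follows largely from the choice.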

How the data were processed

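RNA was extracted from micro-EMB with a magnetic bead kit and made into libraries from low input. The authors aligned the reads with STAR to Sscrofa 11.1 and counted them per gene with featureCounts, and the deposited values are raw counts per gene, not normalized. Antisense and overlapping genes are uncertain where the counting did not use strand, and MYH6 may share reads with the near-identical MYH7. Libraries were grouped by their labels. Genes with at least 1 CPM in at least 2 of the 8 libraries were kept (16901 of 31907), scaled by TMM and tested with edgeR 4.0.16 (R 4.3.3, quasi-likelihood test, Benjamini-Hochberg adjustment over all genes tested), with 0.05 as the threshold. DESeq2 1.42.0, limma-voom 3.58.1, RLE scaling, other filters, the swine as a block, counts summed per swine, all kept or all sequenced libraries and leaving out each library were the alternatives. The step was tested on simulated data. Totals of 3832952 to 10307217 counts set the precision, and PCR copies were not removed by molecular identifiers.

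The members and the gene lists were chosen with earlier results of these data known. The genes named are the 10 with the smallest p in each direction that did not overlap between the regions, used because no gene was called, up to 4 members of each list by mean CPM, and those the study names for this day. Other list members were chosen after their values were seen. Same-swine libraries of the 2 regions had a mean correlation of deviations of 0.0615 (-0.359 to 0.571, 6 pairs), and those of different swine -0.033 (10 pairs). The 7 other libraries of Day 2 enter only the alternative with all sequenced libraries.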

Additional observations from a re-analysis of the deposited data

Results flagged for a closer look

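Among 60 groups of 4 libraries tested on the log2 scale with Dixon's criterion for 4 values, 4 held a library far from the others, where chance gives about 1 in 20. In SMC4 the infarcted library of swine 5385, at 102 CPM, lay 0.885 of the group's log2 range from the nearest other. In the non-infarcted region, ALPL in swine 1644 was high at 18.7 CPM (0.846 of the range), ATOH8 in swine 1644 low at 28.6 CPM (0.866) and EPB41L4B in library A of swine 1640 low at 22.6 CPM (0.877). None of these 4 genes passed the test between the regions.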

How the results depend on the processing

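Against 0 genes called by edgeR, DESeq2 called 194 higher and 51 lower, limma-voom 1 higher, and edgeR 2 higher with a CPM of at least 1 in 4 libraries and 2 higher with no filter. Leaving out 1 library at a time gave 0 to 5 genes higher, the 5 without the infarcted library of swine 5385. Without that library DESeq2 called 269 genes in both directions together, an alternative chosen after seeing the data. The causes were not tested. With the swine as a replicate block no gene was called (0 higher and 0 lower, smallest adjusted p 0.174), and with the block none of the 5 genes was called when the infarcted library of swine 5385 was left out (smallest adjusted p 0.111). It changed no other call. All 30 named genes checked kept their direction under every alternative. Most of them were picked for having no overlap between the regions, which largely fixed this in advance. The rest are genes the study names from samples of this series. Of the list medians, 577 stayed within the spread while 22 moved. Of the 997 higher and 524 lower genes at an unadjusted p under 0.05, both counts were smaller in a fit of all kept biopsies (435 higher) and in one of all sequenced Day 2 libraries (238 lower, and fewer higher than lower), where the medians of collagens and cell cycle genes were 0.881 and 0.956. Without library A of the non-infarcted region of swine 1640 the higher genes were 1639, and the lower ones were 337 without its library B and 290 without that of swine 5385. The medians of sarcomere and nuclear respiratory chain genes turned sign under some, both of them without the non-infarcted library of swine 1644. The number of libraries, 4 from 3 swine in each region, and the lowest total of 3832952 counts limited the precision.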

Other observations

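Immediate early genes, which cells switch on within minutes of a stimulus, had a median log2 fold change between regions of 0.17 at Day 2 (0.982 without library B of the non-infarcted region of swine 1640) and of 1.65 at Day 14. Of 20 tested, 1 was higher at Day 2 at an unadjusted p under 0.05, against 5.90% of all genes.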
